A study of Arabidopsis thaliana with 5 samples.

Results

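The 9 genes described here fall into 3 groups. COP1 (AT2G32950), SPA1 (AT2G46340) and DET1 (AT4G10180) hold back light responses in the dark. HY5 (AT5G11260), HYH (AT3G17609) and LAF1 (AT4G25560) encode transcription factors that promote them, and FHY1 (AT2G37678), FHY3 (AT3G22170) and FAR1 (AT4G15090) act in far-red light signalling. They were taken by locus from 27444 nuclear protein-coding genes and not by a cutoff on a measured value, though earlier results of these data were known. Chromatin immunoprecipitation sequencing (ChIP-seq) with an anti-GFP antibody had mapped TREE1 fused to green fluorescent protein (TREE1-GFP) in Arabidopsis thaliana. A peak was assigned to a gene when it overlapped the gene or the 1000 bp on either side by at least 1 bp. By that rule 8 of the 9 genes had a peak in at least 1 library (55.3% of all coding genes did). In every library 4 (COP1, SPA1, HY5 and FHY1) had one (25.7% of all coding genes did). When each peak counted only for the coding gene nearest its summit, 1 gene, COP1, had a peak in every library.

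All libraries came from shoot tissue of 3-day-old seedlings grown in the dark. They carried the fusion under the TREE1 promoter and were given 4 h of ethylene, a gaseous plant hormone, at 10 ppm or 4 h of hydrocarbon-free air. There were 2 ethylene ChIP libraries, 1 air ChIP library and 1 input library per treatment. The labels do not say whether the line also keeps its own TREE1 gene, whether it is a single transformant, or whether the ethylene libraries came from separate seedlings. The title of the series joins TREE1 to EIN3, a transcription factor that drives ethylene responses, in the repression of genes and of shoot growth. Run names in the list headers carry another protein name, and the air run carries a replicate label of 2. The protein and the libraries are called here as the sample labels call them. After removal of duplicates ethylene library 1 held 5884897 tags, ethylene library 2 held 9459860 and the air library held 9325092. The lists held 9156, 9958 and 8602 peaks in ethylene library 1, ethylene library 2 and air. With a single air library, presence in ethylene and not in air, or the reverse, had no replicate check.

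In darkness COP1, a ubiquitin ligase, works with SPA proteins to mark HY5, HYH, LAF1 and other promoters of light responses for breakdown. DET1 acts beside this complex in the nucleus, and loss of COP1 or DET1 makes dark-grown seedlings look as if they had seen light. HY5 and HYH are bZIP proteins that switch on light-induced genes, and LAF1 is a MYB protein of the phytochrome A pathway. FHY1 carries phytochrome A into the nucleus, and FHY3 and FAR1 are transposase-derived transcription factors that switch on FHY1. Dark-grown seedlings treated with ethylene are the setting of the triple response, in which the hypocotyl stays short and the apical hook tightens.

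Ethylene library 1 had a peak at 5 of the 9 genes, ethylene library 2 at 5 and air at 7. Of all coding genes, 40.7% had a peak by the same rule in ethylene library 1, 41.2% in ethylene library 2 and 39.2% in air. Presence in every library was found for 4 of the 9 genes, against 25.7% of all coding genes. DET1 had a peak in ethylene library 2 and air, a pattern held by 4.42% of coding genes. HYH and FAR1 had one in air alone, as did 4.95%, and FHY3 had one in ethylene library 1 alone, as did 4.91%. LAF1 had none, as did 44.7%. No gene of the 9 had a peak in both ethylene libraries and none in air, a pattern of 5.92% of coding genes. Nor did any have one in ethylene library 1 and air alone (4.22%) or in ethylene library 2 alone (5.25%). HY5 and FHY1 had more than 1 peak in a library, as did 15.9% of coding genes. Without the flanks the 9 genes had a peak for 4 in ethylene library 1, 5 in ethylene library 2 and 6 in air, against 29, 29.3 and 29.6% of coding genes. With 9 genes, 1 gene is 11.1% of the set, and these counts were not tested.

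**Figure D1:**
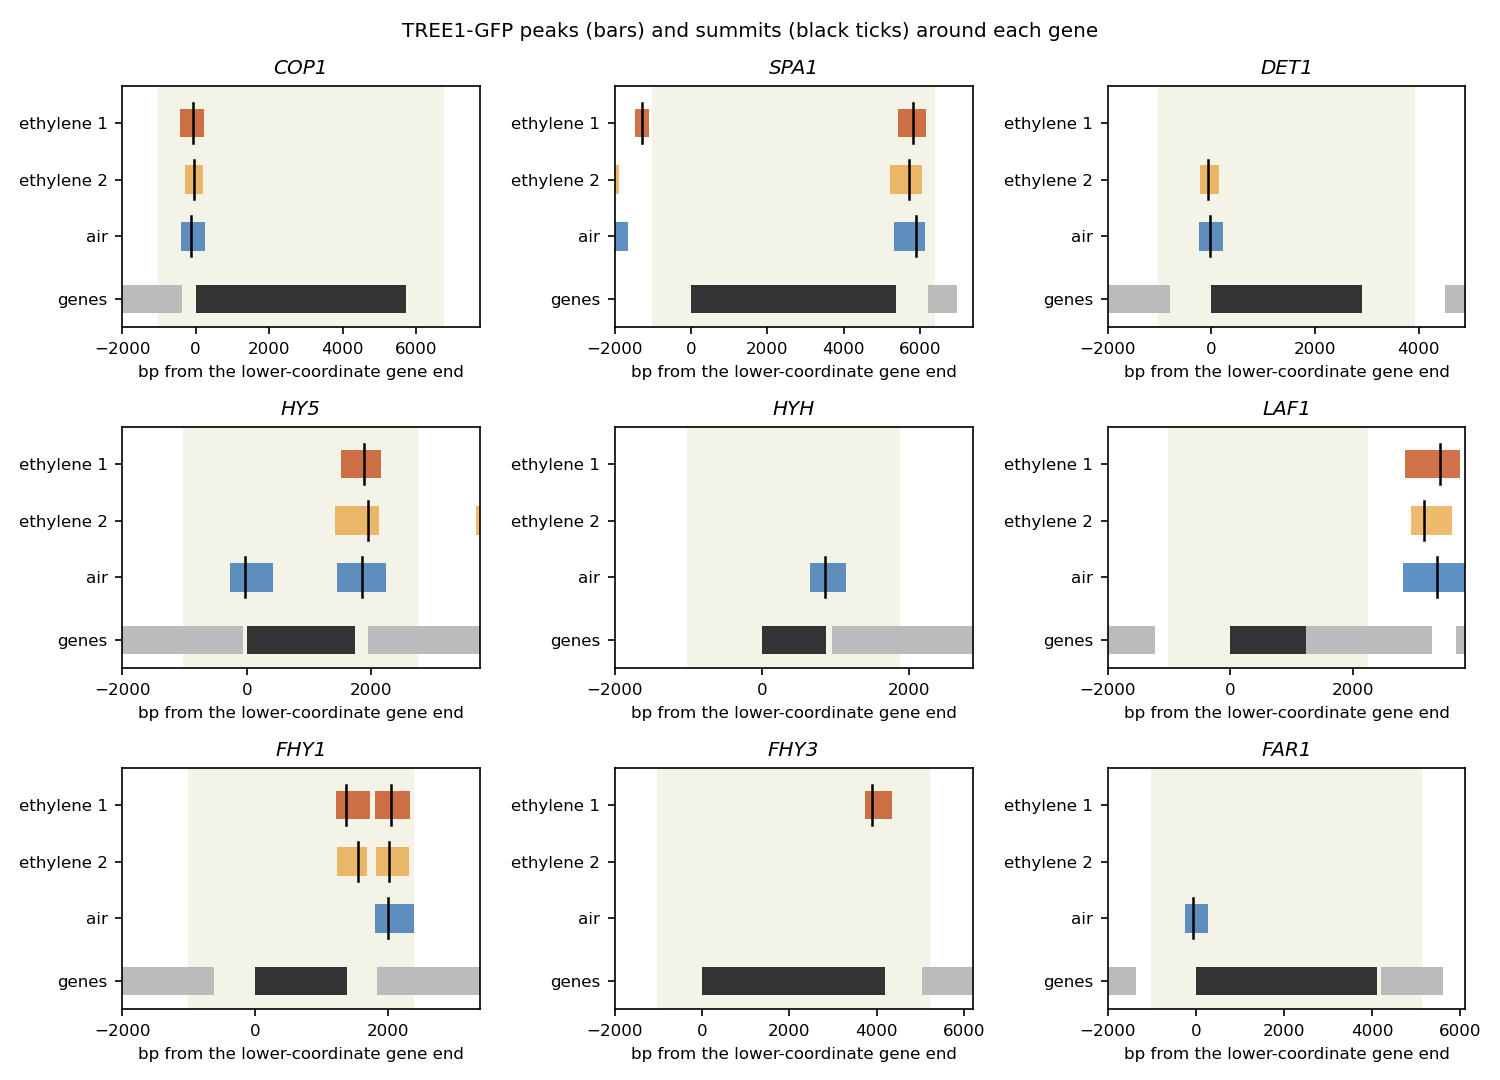
Deposited TREE1-GFP peaks (coloured bars) and summits (black ticks) of ethylene library 1, ethylene library 2 and air, from top to bottom, around each of the 9 genes. The x axis is the distance in bp from the gene end with the lower coordinate, black boxes are the named genes, grey boxes other coding genes, and the shaded band is the gene with 1000 bp on either side. COP1, SPA1, HY5 and FHY1 have peaks in all libraries, and the peaks nearest LAF1 lie outside its band.

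Over the 3 libraries the 9 genes had 20 peaks, where a site called in more than 1 library counts once in each. The 20 are thus not separate positions. The summit, the point of highest tag pileup, lay inside the gene in 3 of the 20 and within 200 bp of a gene end in 12. By library, 2 of 6 summits in ethylene library 1, 0 of 6 in ethylene library 2 and 1 of 8 in air lay inside, against 24.9, 26.4 and 25.2% of all pairs of a coding gene and a peak. Summits within 200 bp of an end numbered 3 of 6 in ethylene library 1, 3 of 6 in ethylene library 2 and 6 of 8 in air. The shares over all such pairs were 50.0, 47.7 and 48.5%. The summit farthest from its gene was that of FHY1 in ethylene library 1, 661 bp away. The table of genes used here gave no strand, so the ends are told apart by the neighbouring gene and not as start and end of transcription.

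At COP1 all 3 libraries had 1 peak over the same end of the gene, the end that faces AGO6 across a gap of 359 bp. AGO6 encodes an Argonaute protein of RNA-directed DNA methylation. The peak ran on chromosome 2 from 13977457 to 13978122 in ethylene library 1, from 13977598 to 13978096 in ethylene library 2 and from 13977496 to 13978142 in air. The summits lay 76, 40 and 116 bp outside COP1, a spread of 76 bp. The 3 peaks had 499 bp in common, which is 72.7% of the stretch they span together. The same summits fall within 1000 bp of AGO6, but COP1 is the nearer gene in all libraries.

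The COP1 peak held 133 tags in ethylene library 1 (exact 95% Poisson interval 111 to 158), 122 in ethylene library 2 (101 to 146) and 137 in air (115 to 162). These intervals cover counting error only. Per bp of peak the tags were 0.200 in ethylene library 1, 0.244 in ethylene library 2 and 0.212 in air. Tag density, scaled to depth, is in tags per kb of peak per 1000000 kept tags. It was 33.9 in ethylene library 1 (28.4 to 40.2), 25.8 in ethylene library 2 (21.5 to 30.9) and 22.7 in air (19.1 to 26.8). The interval of air overlapped that of ethylene library 2 and not that of ethylene library 1. Both ethylene values were above the air value, and they differed from each other by more than the lower of them differed from air. Densities also differed between whole lists, with medians of 25.9 in ethylene library 1, 22.7 in ethylene library 2 and 23.1 in air. Summit height was 32 tags in ethylene library 1, 25 in ethylene library 2 and 27 in air.

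Fold enrichment, which is the authors' own value against local background, was 6.38 in ethylene library 1, 3.50 in ethylene library 2 and 2.40 in air. Within their own lists, 96.4% of the peaks of ethylene library 1 had a lower fold than COP1, 56.8% of those of ethylene library 2 and 3.13% of those of air. The COP1 peak thus stood among the highest folds in one ethylene list and among the lowest in the air list. By tag density, 94.2% of the list of ethylene library 1 was lower, 82.3% of that of ethylene library 2 and 44.8% of that of air. The authors' score, 10 times the negative log10 of the p-value, was 244 in ethylene library 1, 134 in ethylene library 2 and 52.9 in air, where the threshold for calling a peak corresponds to 50. The scale of the folds differed between lists. Summit height divided by fold, a measure of the background behind each fold, had medians over the whole lists of 5.09 in ethylene library 1, 7.08 in ethylene library 2 and 10.2 in air. At COP1 that quotient was 5.02 in ethylene library 1, 7.14 in ethylene library 2 and 11.2 in air.

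SPA1, whose product is the partner that strengthens COP1, was marked at the end that faces AT2G46360 across 830 bp. Its peak ran on chromosome 2 from 19027586 to 19028319 in ethylene library 1, from 19027358 to 19028204 in ethylene library 2 and from 19027463 to 19028287 in air. The summits lay outside the gene, at 428, 342 and 519 bp from its end in ethylene library 1, ethylene library 2 and air. These summits were spread over 177 bp, and in ethylene library 1 and air they were nearer to AT2G46360 than to SPA1. In ethylene library 1 the peak did not reach into SPA1 at all.

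The SPA1 peak held 147 tags in ethylene library 1, 233 in ethylene library 2 and 199 in air, or 0.200, 0.275 and 0.241 tags per bp. Its tag density was 34.0 in ethylene library 1 (28.8 to 40.0), 29.1 in ethylene library 2 (25.5 to 33.1) and 25.9 in air (22.4 to 29.7). As at COP1, both ethylene values were above the air value, but the counting interval of air overlapped that of each ethylene library. Summit heights were 28, 31 and 33 tags in ethylene library 1, ethylene library 2 and air. The folds were 4.52 in ethylene library 1, 3.70 in ethylene library 2 and 2.48 in air. Of the air list, 5.21% of peaks had a lower fold, yet 79.5% had a lower tag density, so fold and density placed the air peak of SPA1 very differently. Height divided by fold was 6.19 in ethylene library 1, 8.38 in ethylene library 2 and 13.3 in air.

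DET1 had a peak over the end that faces AT4G10170 in ethylene library 2 and air. It ran on chromosome 4 from 6346185 to 6346565 in ethylene library 2 and from 6346165 to 6346646 in air, with summits 68 and 31 bp outside the gene. There were 81 tags in ethylene library 2 and 84 in air, with a summit height of 23 in each, and 0.213 and 0.174 tags per bp. The tag density was 22.5 in ethylene library 2 (17.8 to 27.9) and 18.7 in air (14.9 to 23.1). Folds were 3.79 in ethylene library 2 and 2.87 in air, and scores were 97.6 and 57.4. The air density is low for that list, in which 3.88% of peaks had a lower density, 15.3% a lower score and 30.2% a lower fold. In ethylene library 1, the shallowest library, the nearest peak outside the window began 3214 bp from the gene.

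HY5 differed from the other genes in having a peak at each end in air. The peak shared by all libraries lay at the end facing OCP3, a homeobox gene 200 bp away. It ran on chromosome 5 from 3594854 to 3595484 in ethylene library 1, from 3594744 to 3595454 in ethylene library 2 and from 3594791 to 3595576 in air. Summits lay 146, 201 and 104 bp outside HY5 in ethylene library 1, ethylene library 2 and air, each nearer to OCP3 than to HY5. The peak itself covered 220 bp of HY5 in ethylene library 1, 330 bp in ethylene library 2 and 283 bp in air.

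This HY5 peak held 119 tags in ethylene library 1, 184 in ethylene library 2 and 223 in air. Per bp that was 0.189 in ethylene library 1, 0.259 in ethylene library 2 and 0.284 in air. The tag density was 32.0 in ethylene library 1 (26.5 to 38.3), 27.4 in ethylene library 2 (23.5 to 31.6) and 30.4 in air (26.6 to 34.7). The air value thus fell between the ethylene values. Once each library was centred on its median, as in the test below, both ethylene values were below air. Summit height was 25 tags in ethylene library 1, 29 in ethylene library 2 and 57 in air. The height in air was the highest of the 20 peaks, and 98.4% of the air list had a lower one, against 81.5% and 81.3% of the lists of ethylene libraries 1 and 2. Folds were 4.00 in ethylene library 1, 3.31 in ethylene library 2 and 4.72 in air.

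The peak at the other end of HY5, towards AT5G11250, was called in air and not in either ethylene library. It ran on chromosome 5 from 3593059 to 3593756, with its summit 32 bp outside HY5 in a gap of 63 bp between the genes. That summit was equally near to AT5G11250 and HY5. It held 136 tags, or 0.195 per bp, at a tag density of 20.9 (17.5 to 24.7), with a height of 31. Its fold was 4.12 and its score 135.5. In the air list 91.6% of peaks had a lower fold and 20.8% a lower density.

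HYH, the homologue of HY5, had a peak in air alone, on chromosome 3 from 6024504 to 6024995. Its summit lay 3 bp inside HYH at the end that faces RBL14, a rhomboid-like gene 84 bp away. It held 88 tags, or 0.179 per bp, at a tag density of 19.2 (15.4 to 23.6), with a height of 22 tags, a fold of 2.66 and a score of 58.6. In the air list 1.67% of peaks had a lower height, 6.20% a lower density and 14.4% a lower fold. The nearest peaks outside the HYH window began 2981 bp from the gene in ethylene library 1 and 3033 bp in ethylene library 2.

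LAF1 had no peak in its window in any library. Its nearest peaks began 1610 bp away in ethylene library 1, 1713 bp in ethylene library 2 and 1581 bp in air, all on the side of ACYB-2, a cytochrome b561 gene that overlaps LAF1 by 82 bp. This was 1 site found in all libraries, with 161 tags in ethylene library 1, 161 in ethylene library 2 and 275 in air. A flank of 2000 bp would assign it to LAF1.

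FHY1 had a pair of peaks at the end facing AT2G37680, 449 bp away. The first lay over the gene end and was called in both ethylene libraries and not in air. In ethylene library 1 it ran on chromosome 2 from 15802640 to 15803149 and had its summit 3 bp inside FHY1. In ethylene library 2 it ran from 15802653 to 15803097 and had its summit 174 bp outside. It held 77 tags in ethylene library 1, or 0.151 per bp, and 90 tags, or 0.202 per bp, in ethylene library 2. Summit heights were 19 and 23 tags. In ethylene library 1 the tag density was 25.7 (20.2 to 32.1) and in ethylene library 2 it was 21.4 (17.2 to 26.3), each below the median of its list, 25.9 and 22.7. Folds were 3.62 and 3.20 in ethylene libraries 1 and 2.

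The second FHY1 peak was called in every library, with its summit inside AT2G37680. It ran on chromosome 2 from 15803225 to 15803750 in ethylene library 1, from 15803240 to 15803730 in ethylene library 2 and from 15803225 to 15803799 in air. Summits lay 661, 644 and 626 bp from FHY1 in ethylene library 1, ethylene library 2 and air, a spread of 35 bp. It was the most evenly placed site of the set in fold: 6.39 in ethylene library 1, 5.02 in ethylene library 2 and 4.57 in air, each above 96.4, 95.2 and 95.9% of its list. Tags were 98 in ethylene library 1, 127 in ethylene library 2 and 142 in air, or 0.186, 0.259 and 0.247 per bp. Summit heights were 33, 38 and 46 tags. Tag densities were 31.7 in ethylene library 1 (25.7 to 38.6), 27.3 in ethylene library 2 (22.8 to 32.5) and 26.5 in air (22.3 to 31.2), with overlapping intervals. All of these peaks fall within 1000 bp of both FHY1 and AT2G37680, and the lists cannot tell which gene a peak belongs to.

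FHY3 and FAR1, close relatives whose products act together, each had a peak in 1 library, and not in the same one. The FHY3 peak was in ethylene library 1, on chromosome 3 from 7825720 to 7826355, with the summit 314 bp inside the gene. It held 85 tags, or 0.134 per bp, at a tag density of 22.7 (18.1 to 28.1), with a height of 16, a fold of 2.99 and a score of 63.1. In that list 3.79% of peaks had a lower fold. The FAR1 peak was in air, on chromosome 4 from 8613821 to 8614336, with the summit 67 bp outside the gene. It held 102 tags, or 0.198 per bp, at a tag density of 21.2 (17.3 to 25.7), with a height of 28, a fold of 2.91 and a score of 56.7. No other coding gene had either summit within 1000 bp.

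**Figure D2:**
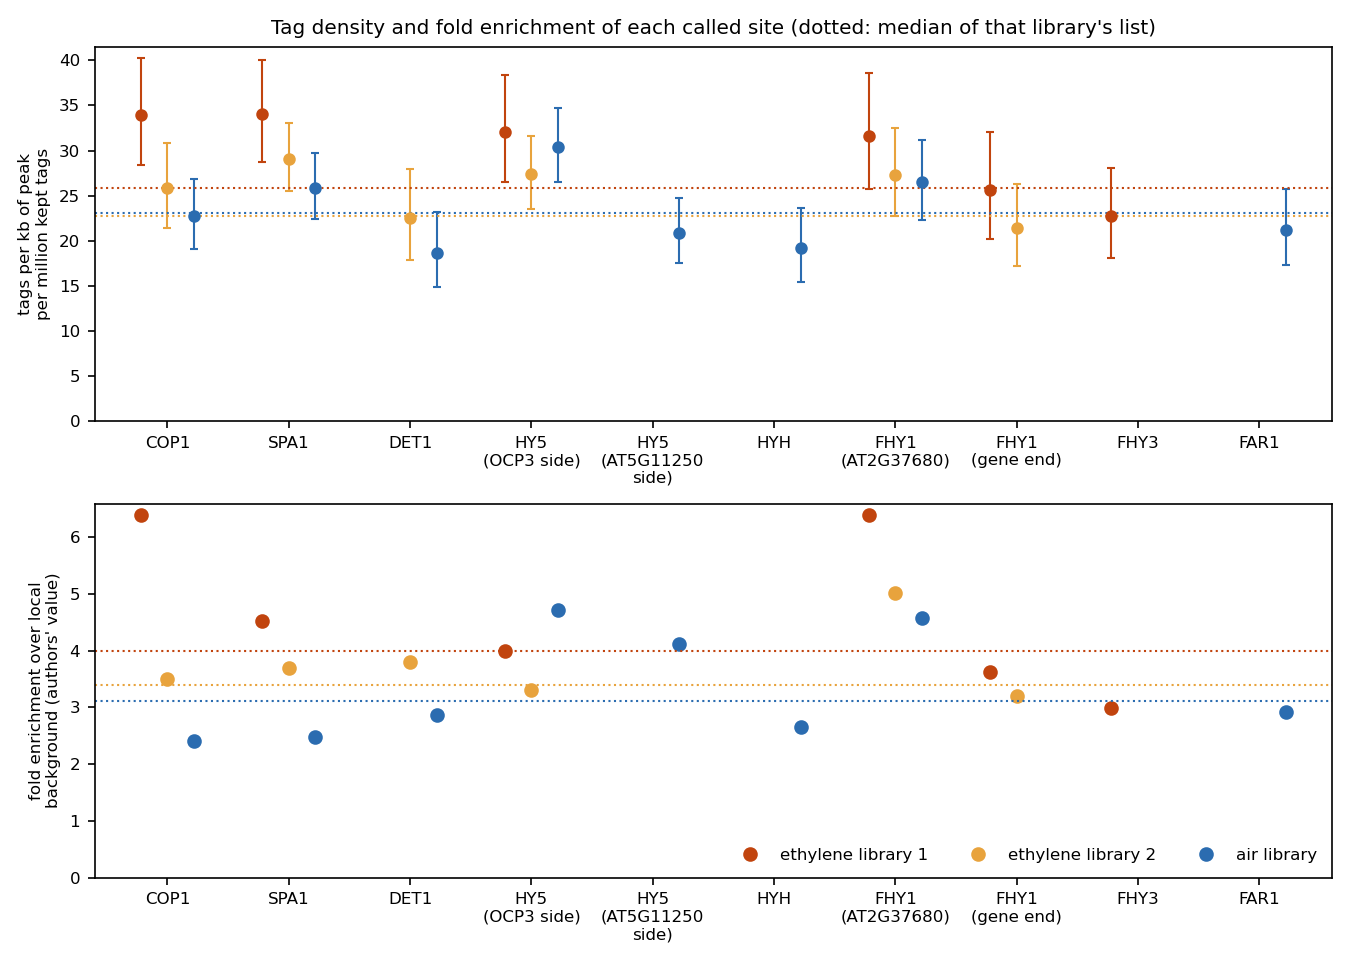
Tag density (top, tags per kb of peak per 1000000 kept tags, bars are exact 95% Poisson intervals of the tag count) and the authors' fold enrichment (bottom) of each called site, for ethylene library 1, ethylene library 2 and air from left to right. Dotted lines are the medians of the 3 lists. At COP1 the folds are 6.38, 3.50 and 2.40, the air value lying below the air median of 3.11. At the AT2G37680 site near FHY1 they are 6.39, 5.02 and 4.57, all above their medians.

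The air calls were often close to the authors' threshold. Of the 8 air peaks, 3 had a score of at least 100 (both at HY5 and the one by FHY1), against 4 of 6 in each ethylene library. The other 5, at COP1, SPA1, DET1, HYH and FAR1, scored between 52.9 and 61.6, with a list median of 82.8. The median score was 86.6 in the list of ethylene library 1 and 87.9 in that of ethylene library 2. The share of each whole list that scored 100 or more was not counted. Counting only peaks that scored 100 or more, air had 2 of the 9 genes, HY5 and FHY1. Both ethylene libraries then had 4, namely COP1, SPA1, HY5 and FHY1. The matching shares of all coding genes were 18.4% in ethylene library 1, 19.2% in ethylene library 2 and 16.1% in air. The order between air and ethylene within the set thus turned with the threshold. Scores depend on depth and on the input each library was called against, and air had its own input.

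Whether tag density differed between ethylene and air at the sites found in every library was tested over all regions with a peak in all 3 lists. Density divides tags by the called width, so it is not by itself an amount of protein. Over the whole lists the median width was 488 bp in each ethylene library and 673 bp in air. Overlapping peaks were merged, which gave 4850 such regions. Tags per kb per 1000000 kept tags were put on a log2 scale and centred on the median of each library, and ethylene was set against air with limma. The spread rests on the 2 ethylene libraries, and the lone air library is assumed to vary like them. With Benjamini-Hochberg adjustment 1 of 4850 regions passed 0.05 (0.0206%), higher in ethylene, while 184 had an unadjusted p under 0.05. None of the 4 regions at COP1, SPA1, HY5 and FHY1 passed.

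At COP1 ethylene library 1 had a centred log2 density of 4.97, ethylene library 2 had 4.75 and air had 4.55. The difference of 0.31 ± 0.15 (SE) had a 95% interval of 0.02 to 0.60 and an adjusted p of 0.995 by limma. The fit gave SPA1, HY5 and FHY1 this same SE, so the intervals do not reflect the spread within each region. The ethylene libraries differed by 0.22 at COP1, 0.05 at SPA1, 0.05 at HY5 and 0.04 at FHY1. Of all 4850 regions, 98.1% had a lower difference than COP1. The SPA1 region had log2 densities of 4.98 and 4.92 with ethylene (libraries 1 and 2) and 4.74 with air, a difference of 0.21 with an interval of -0.08 to 0.49 (limma, adjusted p = 0.995). The HY5 region at the OCP3 side had 4.89 and 4.84 with ethylene (libraries 1 and 2) and 4.98 with air, a difference of -0.11 with an interval of -0.40 to 0.17 (limma, adjusted p = 0.995). The FHY1 region in AT2G37680 had 4.87 and 4.84 with ethylene (libraries 1 and 2) and 4.78 with air, a difference of 0.08 with an interval of -0.21 to 0.36 (limma, adjusted p = 0.995). At COP1, SPA1 and FHY1 both ethylene libraries were above air, and at HY5 both were below it, with none of these differences past the test. With tags per peak in place of density, centred in the same way, the differences were 0.55 at COP1, 0.55 at SPA1, 0.31 at FHY1 and 0.07 at HY5. HY5 was then above 0, and none passed. With summit height in place of density the differences were 0.57 at COP1, 0.34 at SPA1 and 0.13 at FHY1, and -0.57 at HY5, where limma gave an unadjusted p of 0.025 and an adjusted p of 0.995.

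**Figure D3:**
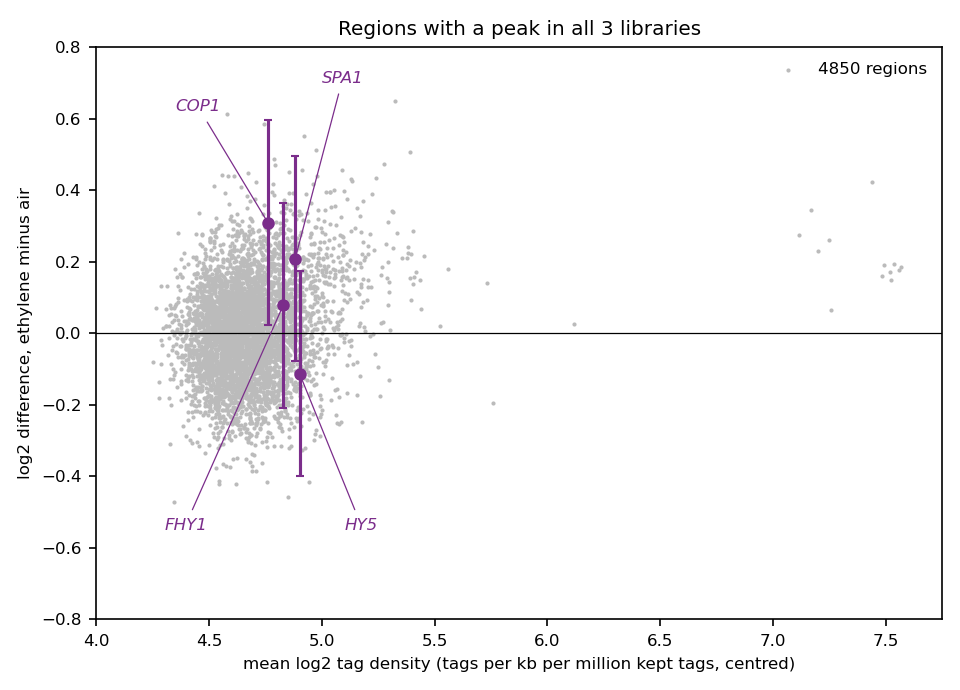
Difference in log2 tag density, ethylene minus air (y axis), against the mean log2 tag density of the 3 libraries (x axis, tags per kb per 1000000 kept tags, centred) for the 4850 regions with a peak in every library (grey). Purple points are the regions at COP1, SPA1, FHY1 and HY5 with 95% intervals. The COP1 interval, 0.02 to 0.60, is the only one of the 4 that does not include 0, before adjustment over all regions.

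Other genes that work with these were counted by the same rule in 3 lists. Of 17 partners in the COP, DET and COP9 signalosome machinery, 6 had a peak in ethylene library 1, 7 in ethylene library 2 and 5 in air, and 4 had one in every library. These are 35.3, 41.2, 29.4 and 23.5% of the list, against 40.7, 41.2, 39.2 and 25.7% of all coding genes, and so near or below the shares over all genes. The 4 were SPA4, CSN1, CSN3 and CSN7, the last 3 encoding subunits of the COP9 signalosome, which acts on cullin-based ubiquitin ligases. CSN3 stood highest, with folds of 5.47 in ethylene library 1, 4.37 in ethylene library 2 and 3.42 in air and summits 48, 21 and 76 bp from the gene end. CSN1 had folds of 4.25, 3.49 and 3.09 in ethylene library 1, ethylene library 2 and air, and SPA4 had 3.84, 4.05 and 2.63. Among the SPA genes, SPA2 had a peak in ethylene library 2 alone and SPA3 had none, so SPA1 and SPA4 were the members of that family with a peak in every library.

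Of 12 members of the FAR1-related family, 8 had a peak in each ethylene library and 5 in air, and those 5 (FRS4, FRS6, FRS8, FRS9 and FRS11) had one in every library. This is 66.7% of the family in each ethylene library, 41.7% in air and 41.7% in every library, against 40.7 and 41.2%, 39.2% and 25.7% of all coding genes. The air share was thus near that of all genes, and none of these differences was tested. FRS6, first of the family by the sum of its fold ranks, had folds of 5.27 in ethylene library 1, 4.89 in ethylene library 2 and 3.15 in air, and its summits lay 12, 54 and 1 bp from a gene end. FRS8 had folds of 5.71, 3.66 and 2.63 and FRS9 had 5.40, 3.14 and 3.10 in ethylene library 1, ethylene library 2 and air. FRS5 and FRS12 had a peak in both ethylene libraries and none in air, a pattern of 5.92% of all coding genes and of no gene of the 9. Whether the family differs from FHY3 and FAR1 was not tested.

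All 5 remaining genes that act beside COP1, HY5 and FHY1 had a peak in every library, as did 25.7% of all coding genes. They are HFR1, a bHLH factor that COP1 targets, FHL, the homologue of FHY1, UVR8, the ultraviolet-B receptor that binds COP1, and RUP1 and RUP2, which switch UVR8 off. RUP1 had folds of 4.99 in ethylene library 1, 3.70 in ethylene library 2 and 3.60 in air, with summits 362, 305 and 357 bp from the gene end. FHL had 4.23, 4.33 and 3.38 in ethylene library 1, ethylene library 2 and air, with 191, 291 and 491 tags. At HFR1 the peak reached into the window, but its summits lay 1493, 1394 and 1499 bp from the gene, so 4 of the 5 counted in each library when the summit itself had to lie in the window. By that stricter rule 38.5% of all coding genes counted in ethylene library 1, 38.8% in ethylene library 2 and 36.2% in air. The folds at HFR1 were 3.54 in ethylene library 1, 3.94 in ethylene library 2 and 3.38 in air.

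**Figure D4:**
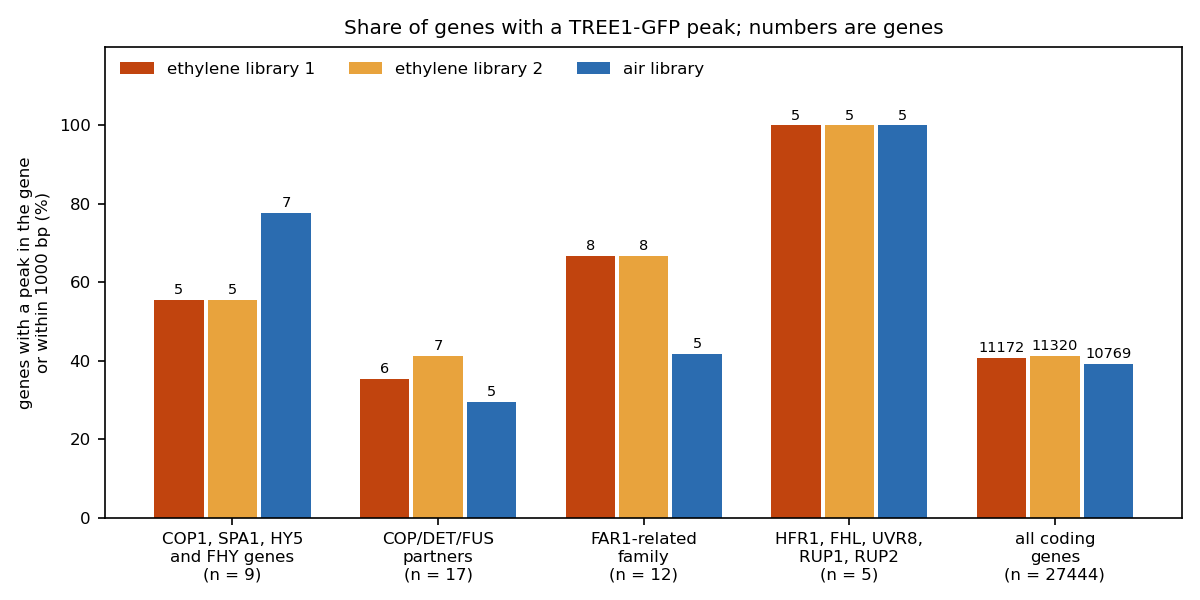
Share of genes with a deposited peak in the gene or within 1000 bp (y axis, percent) in ethylene library 1, ethylene library 2 and air, for the 9 genes, the 3 lists of related genes and all 27444 coding genes. The number of genes stands above each bar. The 9 genes have 5, 5 and 7 with a peak, and all coding genes stand at 40.7, 41.2 and 39.2%.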

How the data were processed

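The submitters' processing notes name BWA and the TAIR10 build. Per the file headers, MACS 1.4.2 called peaks in every ChIP library by itself, with the input of its treatment as control, at a p cutoff of 1e-05, 1 tag kept per position and the larger data set scaled to the smaller. Both ethylene lists share 1 input. Tags per peak are deposited counts. The score, 10 times the negative log10 of the p-value, the fold enrichment (a ratio) and the FDR in percent are the authors' values, and summit height is the deposited pileup signal.

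Gene positions came from a RefSeq table of TAIR10.1 without strand or sequence. None of its coordinates is printed. Distances rest on its nuclear positions matching TAIR10: shifting all summits along a chromosome, 100 bp at a time and as far as 2000 bp, never gave fewer summits in coding genes than no shift (15 of 15 combinations of a chromosome and a list). All 34 genes of the related lists were matched. No sequence is printed and the planned motif search was not run, as no genome was used here.

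Tests used limma 3.58.1 in R 4.3.3. Intervals, counts and figures used scipy 1.17.1, pandas 2.3.3, numpy 2.4.6 and matplotlib 3.10.9 in Python 3.11.15. Regions are peaks of any library sharing at least 1 bp. The interval and limma steps were tested on simulated data. The genes and lists were chosen with earlier results of these data known. All 9 genes are named, and each related list gives up to 3 genes with values, those with peaks in all libraries first and then by the smallest sum of fold ranks. Genes of those lists named without values by their pattern were chosen after their calls were seen. If the ethylene libraries are technical replicates, the p-values measure technical spread only.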

Additional observations from a re-analysis of the deposited data

How the results depend on the processing

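The number of the 9 genes with a peak in every library, 4, stayed between 4 and 5 with flanks of 500 or 2000 bp, with the summit or most of the peak in the window, with lists of equal length and without either ethylene library. It was 2 with no flank, where FHY1 lost its air call and SPA1 its call in ethylene library 1. It was 1, COP1, when each peak counted only for the coding gene nearest its summit, and ethylene library 1 then had 3 genes. With a score of at least 100 it was 2, with 2 genes in air and 4 with a peak in any library. For all coding genes, the shares in every library (25.7%) and in any library (55.3%) were taken by the main rule only. Whether the 9 genes moved differently from all coding genes was thus not tested. The 1 region past the limma test was lost, with 0 called, without centring, with summit height, with tags per peak, with 1 peak per library and with a score of at least 100. Unadjusted p-values under 0.05 then numbered 55, 118, 176, 167 and 75. The HY5 difference turned from -0.11 to 0.067 with tags per peak. The cause of these changes was not tested. Without 1 ethylene library, a value with no test, the COP1 difference ranged from 0.20 to 0.42. COP1 and SPA1 had no value at a score of at least 100, since their air peaks fall below it. No paired analysis was possible because air has a single ChIP library, so the groups share fewer than 2 replicate numbers. Absence from a list means that no peak passed the authors' threshold at that depth, and not that no protein was there.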

Other observations

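All libraries had a further peak on the AGO6 side of COP1, and its distance from the far end of AGO6 was not measured. Beside the peak in the gap shared with COP1, the next peak beyond the COP1 window ran on chromosome 2 from 13971490 to 13972208 in ethylene library 1, from 13971440 to 13972145 in ethylene library 2 and from 13971321 to 13972210 in air. It held 168 tags in ethylene library 1, 216 in ethylene library 2 and 266 in air, with folds of 5.52, 4.70 and 3.45. Its tag density, in tags per kb of peak per 1000000 kept tags, was 39.7 in ethylene library 1, 32.3 in ethylene library 2 and 32.1 in air, higher than the COP1 peak of the same library in each case.

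On the AGP16 side of SPA1, outside the window, the nearest peaks of ethylene library 2 and air overlapped, and that of ethylene library 1 was a separate one nearer to SPA1. The nearest summit lay 1294 bp from SPA1 in ethylene library 1, with 47 tags and a fold of 3.73, 2168 bp in ethylene library 2, with 136 tags and a fold of 4.76, and 2160 bp in air, with 181 tags and a fold of 3.61.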
